A study of Mus musculus with 12 samples.

Results

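The transporters described here are those through which platinum drugs, organic cations and copper are thought to pass in and out of kidney cells. They are the organic cation transporters Slc22a2 (OCT2) and Slc22a3 (OCT3), the proton-coupled exporter Slc47a1 (MATE1), the copper transporters Slc31a1 (CTR1) and Slc31a2 (CTR2), and the copper-pumping ATPases Atp7a and Atp7b. They were chosen by name: each gene symbol was matched in a deposited table of 52636 genes, and all 7 were found. Of these, 5 reached the expression minimum for testing, which asked for 1 FPKM or more in 3 or more of the 12 libraries. FPKM counts sequenced fragments per kilobase of gene after scaling for library size. Slc22a3 and Atp7b were under that minimum and are given from a fit without it.

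RNA was sequenced from whole kidneys of C57BL/6 mice, all male, wild type and 8 weeks old. There were 4 groups, each with 3 libraries. The cisplatin+PCN group had PCN by gavage at 40 mg/kg daily for 4 days and then a single intraperitoneal injection of cisplatin at 20 mg/kg. The cisplatin group had corn oil by gavage and the same injection, the PCN group had PCN and saline, and the control group had corn oil and saline. Gavage went on for 3 more days, and tissue was taken 4 days after the injection. PCN (pregnenolone 16α-carbonitrile) is an activator of the rodent pregnane X receptor, a nuclear receptor encoded by Nr1i2 that switches on drug-handling genes in liver. Cisplatin is a platinum drug that injures the kidney tubule. Another sentence of the labels' protocol lists the cisplatin group among those given PCN, so the groups follow the library titles. Nothing in the labels ties a library to a separate animal, so the p-values given here reflect the spread among libraries, part of which may be technical.

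In the proximal tubule, organic cations enter the cell from the blood side through OCT2 and leave into the urine through MATE1 in exchange for protons. Cisplatin is a known substrate of OCT2 and is also carried by CTR1, a copper importer of the plasma membrane. ATP7A and ATP7B move copper into the secretory pathway and out of the cell, and both can bind platinum. CTR2 lies largely on inner membranes such as endosomes and lysosomes.

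Recovered read totals ran from 18914607 to 26530485 per library. All 15 proximal tubule markers chosen for the check of tissue passed the expression minimum, as did all 6 podocyte markers. The summed FPKM of the proximal tubule markers was 2036, 1017 and 1352 in the cisplatin+PCN libraries and between 895 and 1037 in the cisplatin libraries. The sum was between 4200 and 4376 in the PCN libraries and between 3976 and 4373 in the control libraries. Cisplatin+PCN replicate 1 stood apart from the other libraries of its group on this sum, and results that rest on it are also given without it. In whole kidney, fewer cells of a type and less RNA per cell cannot be told apart.

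Slc22a2, Slc47a1 and Slc31a1 were abundant in control kidneys and lower after cisplatin, with or without PCN. Slc22a2 and Slc31a1 were higher in cisplatin+PCN than in cisplatin kidneys, Slc31a1 only just past the threshold, whereas for Slc47a1 no such difference was detected. Slc31a2 and Atp7a differed by far less, and where they passed they were higher with cisplatin. None of the 5 tested transporters passed between PCN and control, where 0% of all tested genes passed either.

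**Figure D1:**
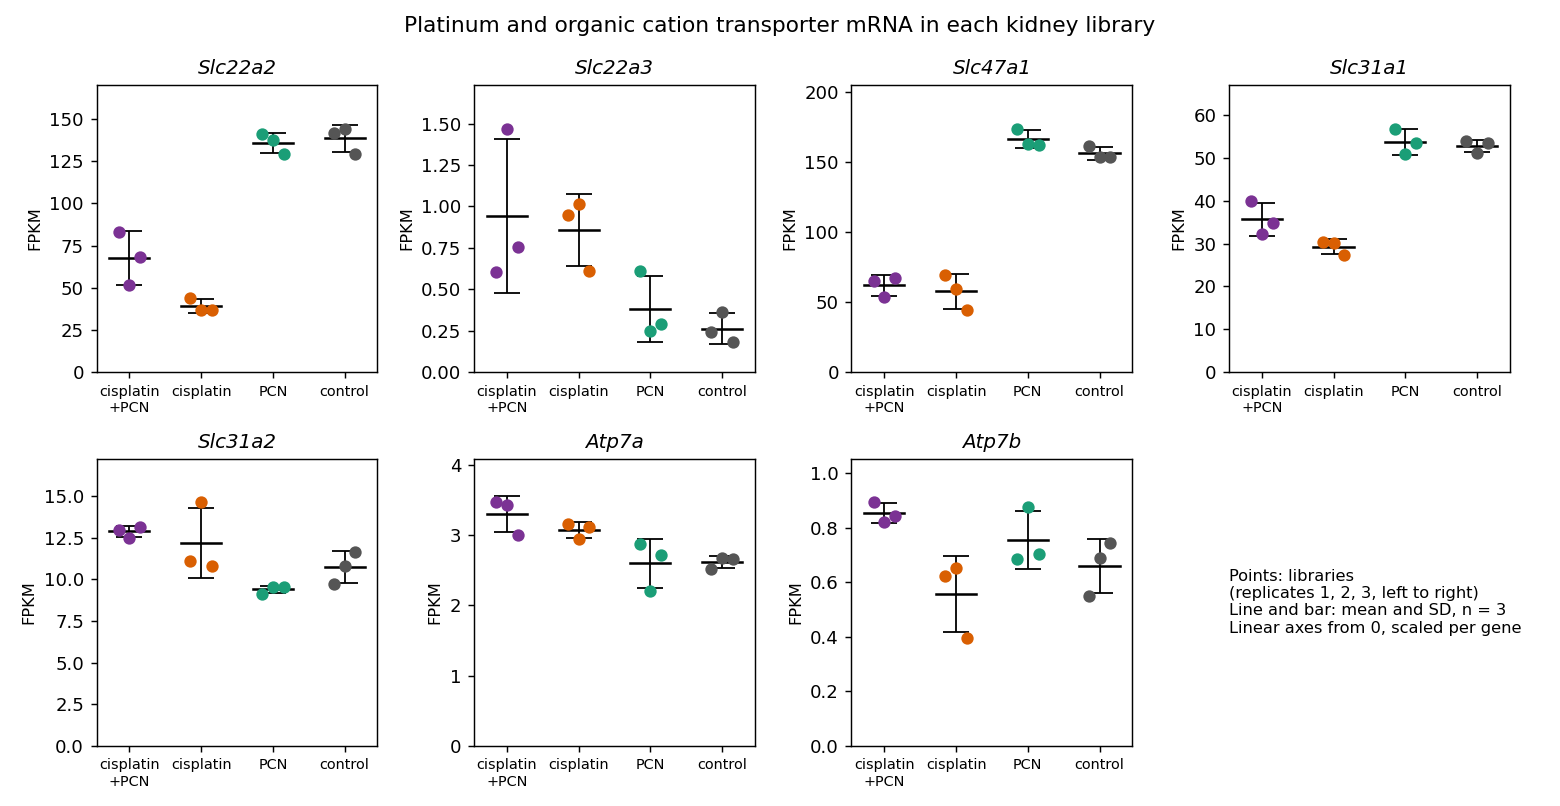
FPKM of the 7 transporters in each of the 12 kidney libraries, in panels per gene with linear axes from 0. Points are libraries in the order of their replicate numbers, and lines and bars are the mean and SD of 3 libraries per group. For Slc22a2 the cisplatin+PCN libraries (51.3 to 83.2) lie above the cisplatin libraries (36.7 to 43.7), and for Slc47a1 the 2 groups overlap.

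The stretches upstream of the RefSeq transcription starts (build GRCm38.p6) of 4 transporters are printed below because Slc22a2 and Slc31a1 shared a direction in these data and Slc31a2 and Atp7a did not share it. They cover the 150 bases before the start, or for Slc22a2 the first 93 of these, since the rest lies in an annotated exon. Capitals mark matches to motifs chosen after values were seen: the CCAAT box, a GC box with the letters GGGCGG, an E-box with the letters CACGTG, the TATA box with the letters TATAAA, a nuclear receptor half-site with the letters AGGTCA and the metal response element core with the letters TGCNCNC. Both strands were searched, and no marked matches overlap. The stretches lie at chr17:12584039-12584131 (Slc22a2), chr4:62360551-62360700 (Slc31a1), chr4:62286279-62286428 (Slc31a2) and chrX:106027074-106027223 (Atp7a), all on the plus strand.
Slc22a2: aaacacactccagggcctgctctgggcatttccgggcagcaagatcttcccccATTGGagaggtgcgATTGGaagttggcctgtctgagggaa
Slc31a1: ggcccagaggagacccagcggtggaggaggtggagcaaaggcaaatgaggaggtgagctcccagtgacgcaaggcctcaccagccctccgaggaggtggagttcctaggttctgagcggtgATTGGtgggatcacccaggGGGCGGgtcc
Slc31a2: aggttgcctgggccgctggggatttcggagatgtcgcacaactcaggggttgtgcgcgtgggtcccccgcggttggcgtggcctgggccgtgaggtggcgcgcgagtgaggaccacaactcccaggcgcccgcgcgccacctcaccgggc
Atp7a: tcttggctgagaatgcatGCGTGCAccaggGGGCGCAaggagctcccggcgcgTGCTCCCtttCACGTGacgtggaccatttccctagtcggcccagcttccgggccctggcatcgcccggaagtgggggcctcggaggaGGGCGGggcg

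The Slc22a2 stretch held 2 CCAAT boxes, both on the reverse strand and so printed as ATTGG. Of 32851 RefSeq promoters, 2.64% held at least 2 in the same 93 positions. The Slc31a1 stretch held a CCAAT box on the reverse strand and a GC box, motifs found in 24.5% and 28.6% of promoters over 150 bases. This stretch lies between Slc31a1 and Fkbp15, which begins at 62360548 on the opposite strand, so it is upstream of both genes. Fkbp15 averaged 5.49 FPKM in cisplatin and 5.95 in control kidneys. The Atp7a stretch held an E-box, a GC box and 3 metal response element cores, and the E-box and this core were present in 4.29% and 31.4% of promoters. None of the 6 motifs was found in the Slc31a2 stretch. That stretch precedes a RefSeq start but lies inside the gene's span in the deposited table (62262562 to 62298411). Bases upstream of that span were not searched. These are letter matches in short windows, and no binding was measured.

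Slc22a2 lies on chromosome 17 from 12584189 to 12628465 on the plus strand (ENSMUSG00000040966, GRCm38). It encodes the basolateral carrier that takes cisplatin into the proximal tubule cell. It had 83.2, 51.3 and 68.4 FPKM in cisplatin+PCN libraries, 43.7, 36.9 and 36.7 in cisplatin libraries, 141, 138 and 129 in PCN libraries, and 142, 144 and 129 in control libraries. Every cisplatin+PCN library was above every cisplatin library and below every PCN and control library, and PCN and control overlapped. These levels rest on 1779 to 6957 reads per library. With 138 ± 8.03 FPKM in control kidneys (SD, n = 3), Slc22a2 ranked 377 of 13540 tested genes. The mean in cisplatin kidneys was 28.3% of the control mean, and that in cisplatin+PCN kidneys 48.9% of it.

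On the log2(FPKM + 1) scale, Slc22a2 fell by 1.80 ± 0.14 (SE) in cisplatin against control kidneys (limma, adjusted p = 1.80e-06). It was also lower in cisplatin+PCN than in PCN kidneys, at -1.02 ± 0.14 (limma, adjusted p = 0.000207). Between cisplatin+PCN and cisplatin it was higher by 0.75 ± 0.14, with a 95% interval from 0.43 to 1.07 (limma, adjusted p = 0.0118). Between PCN and control the change was -0.03, with an interval from -0.34 to 0.29. The interaction, which sets the PCN difference with cisplatin against that without it, was 0.78 ± 0.20 and did not pass (limma, adjusted p = 0.119).

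The difference between cisplatin+PCN and cisplatin was 0.59 without cisplatin+PCN replicate 1 (limma, adjusted p = 0.0255). It stayed past the threshold with any single library left out, from 0.59 to 0.93. In a fit of the 6 libraries of these groups alone it no longer passed (limma, adjusted p = 0.124), and that fit called 1 gene of 13540, Mir343. Within the cisplatin+PCN group, the order of the libraries by Slc22a2 was also their order by summed proximal tubule markers, with replicate 1 highest and replicate 2 lowest. The part of these markers in the result was not tested.

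Slc22a3 lies on chromosome 17 from 12419972 to 12507704 on the minus strand (ENSMUSG00000023828), 76485 bases from Slc22a2. It encodes a broad-specificity carrier known mostly outside the kidney tubule. It had 0.602, 1.47 and 0.756 FPKM in cisplatin+PCN libraries, 0.950, 1.01 and 0.608 in cisplatin libraries, 0.612, 0.247 and 0.291 in PCN libraries, and 0.244, 0.363 and 0.179 in control libraries. All 6 libraries with cisplatin lay above the 3 control libraries, but 1 PCN library reached their range. These values rest on 14 to 131 reads. In the fit without an expression minimum it was higher by 0.55 ± 0.17 in cisplatin than in control kidneys (limma, adjusted p = 0.0291) and by 0.60 ± 0.17 in cisplatin+PCN than in control kidneys (limma, adjusted p = 0.0303). In that fit 32.1% and 20.2% of 31636 genes passed in these comparisons. In cisplatin+PCN against PCN kidneys Slc22a3 was at 0.47 ± 0.17 and did not pass (limma, adjusted p = 0.0767), where 6496 of 31636 genes did. Its direction in both cisplatin groups against control was opposite to that of Slc22a2.

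The exporter Slc47a1 lies on chromosome 11 from 61343401 to 61378345 on the minus strand (ENSMUSG00000010122). It had 65.1, 53.3 and 67.0 FPKM in cisplatin+PCN libraries, 69.4, 59.0 and 44.3 in cisplatin libraries, 174, 163 and 162 in PCN libraries, and 161, 154 and 153 in control libraries. The 6 libraries with cisplatin overlapped each other and lay far below the 6 without it. Its control mean of 156 ± 4.42 FPKM (SD, n = 3) ranked 319 of 13540. The means in cisplatin+PCN and cisplatin kidneys were 39.6% and 36.9% of it.

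Slc47a1 fell by 1.45 ± 0.14 in cisplatin against control kidneys (limma, adjusted p = 7.03e-06) and by 1.42 ± 0.14 in cisplatin+PCN against PCN kidneys (limma, adjusted p = 1.76e-05). Between cisplatin+PCN and cisplatin the change was 0.12, with a 95% interval from -0.19 to 0.43 (limma, adjusted p = 0.591). The interval holds an increase of up to 0.43, so the data do not show that Slc47a1 was alike in the 2 groups. In PCN against control the change was 0.09, with an interval from -0.22 to 0.40. The 3 PCN libraries all lay above the 3 control libraries, as did 6.12% of tested genes. The related exporter gene Slc47a2, 541 bases away on the same strand, was under the minimum, at 0.0164 to 0.144 FPKM over the 12 libraries.

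The FPKM of Slc22a2 divided by that of Slc47a1 in the same library sets uptake beside export. Its mean was 1.09 ± 0.17 in cisplatin+PCN, 0.695 ± 0.117 in cisplatin, 0.818 ± 0.024 in PCN and 0.887 ± 0.047 in control libraries (SD, n = 3 each). The cisplatin+PCN libraries (0.963 to 1.28) all lay above the cisplatin libraries (0.625 to 0.830) and above the PCN and control libraries (0.798 to 0.937). This ratio is a description, since with 3 libraries a group the smallest p of an exact permutation test is 0.1. It speaks of mRNA, and transport was not measured.

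**Figure D2:**
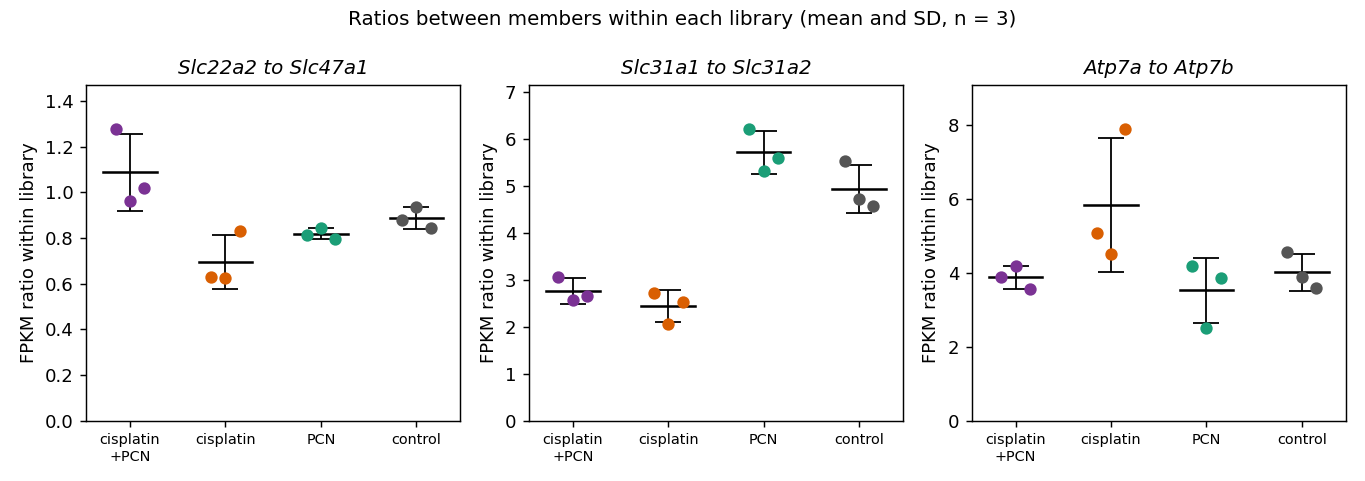
FPKM ratios between pairs of transporters within each library, on linear axes from 0. Points are libraries, and lines and bars are the mean and SD of 3 libraries per group. The Slc22a2 to Slc47a1 ratio was highest in cisplatin+PCN libraries (0.963 to 1.28), and the Slc31a1 to Slc31a2 ratio was lower in all 6 libraries with cisplatin (2.06 to 3.07) than in the 6 without it (4.59 to 6.23).

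The copper importer Slc31a1 lies on chromosome 4 from 62360727 to 62391769 on the plus strand (ENSMUSG00000066150). It had 39.9, 32.2 and 34.9 FPKM in cisplatin+PCN libraries, 30.4, 30.2 and 27.4 in cisplatin libraries, 56.9, 50.9 and 53.5 in PCN libraries, and 54.0, 51.2 and 53.5 in control libraries. The cisplatin libraries were lowest, the cisplatin+PCN libraries lay just above them without overlap, and PCN and control overlapped. Cisplatin kidneys had 55.5% of the control mean and cisplatin+PCN kidneys 67.5%.

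Slc31a1 fell by 0.83 ± 0.08 in cisplatin against control kidneys (limma, adjusted p = 8.78e-06) and by 0.58 ± 0.08 in cisplatin+PCN against PCN kidneys (limma, adjusted p = 0.000225). It was higher by 0.27 ± 0.08 in cisplatin+PCN than in cisplatin kidneys, at an adjusted p of 0.049998 (limma), which is at the threshold. Without cisplatin+PCN replicate 1 the difference was 0.19 (limma, adjusted p = 0.118), and it lost the call when 10 of the 12 libraries were left out in turn (0.19 to 0.30). Cdc26, on the opposite strand, overlaps Slc31a1 over 8116 bases at 3.66 to 4.79 FPKM. No label states whether counting used strand, so reads in that overlap cannot be told apart.

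Slc31a2 lies 62316 bases from Slc31a1, from 62262562 to 62298411 on the plus strand of chromosome 4 (ENSMUSG00000066152). It encodes a relative that in mouse cells has been tied to lower platinum uptake. It had 12.99, 12.5 and 13.2 FPKM in cisplatin+PCN libraries, 11.1, 14.6 and 10.8 in cisplatin libraries, 9.14, 9.54 and 9.53 in PCN libraries, and 9.76, 10.8 and 11.7 in control libraries. The cisplatin+PCN libraries lay above all PCN and control libraries, and the cisplatin libraries overlapped with both cisplatin+PCN and control. It was higher by 0.42 ± 0.10 in cisplatin+PCN than in PCN kidneys (limma, adjusted p = 0.00592). The change in cisplatin against control was 0.16 (limma, adjusted p = 0.186), and in cisplatin+PCN against control 0.24 (limma, adjusted p = 0.0672); neither passed. The neighbours Slc31a1 and Slc31a2 thus passed in opposite directions in cisplatin+PCN against PCN kidneys. The Slc31a1 to Slc31a2 ratio was 2.77 ± 0.27 in cisplatin+PCN, 2.44 ± 0.34 in cisplatin, 5.72 ± 0.46 in PCN and 4.95 ± 0.51 in control libraries (SD, n = 3 each).

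Atp7a, whose product loads copper onto secreted enzymes and exports it, lies on chromosome X from 106027276 to 106124926 on the plus strand (ENSMUSG00000033792). It had 3.47, 3.44 and 3.00 FPKM in cisplatin+PCN libraries, 3.16, 2.94 and 3.12 in cisplatin libraries, 2.87, 2.21 and 2.72 in PCN libraries, and 2.52, 2.68 and 2.66 in control libraries. All 6 libraries with cisplatin lay above the 6 without it, by a small margin. It was higher by 0.26 ± 0.08 in cisplatin+PCN than in PCN kidneys (limma, adjusted p = 0.0200) and by 0.25 ± 0.08 in cisplatin+PCN than in control kidneys (limma, adjusted p = 0.0249). Without cisplatin+PCN replicate 1 these became 0.23 (limma, adjusted p = 0.0570) and 0.22 (limma, adjusted p = 0.0687). In cisplatin against control the change was 0.17 and did not pass (limma, adjusted p = 0.0809).

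Atp7b, whose product exports copper chiefly in liver and is mutated in Wilson disease, was low. It lies on chromosome 8 from 21992785 to 22060305 on the minus strand (ENSMUSG00000006567). It had 0.893, 0.821 and 0.844 FPKM in cisplatin+PCN libraries, 0.623, 0.652 and 0.395 in cisplatin libraries, 0.685, 0.877 and 0.704 in PCN libraries, and 0.551, 0.688 and 0.742 in control libraries. The cisplatin+PCN libraries lay above the cisplatin and control libraries, and 1 PCN library reached into their range. These values rest on 67 to 146 reads. Without an expression minimum, the change between cisplatin+PCN and cisplatin was 0.26 ± 0.09 and did not pass (limma, adjusted p = 0.140), and 3.19% of genes did. The Atp7a to Atp7b ratio was 3.87 ± 0.31 in cisplatin+PCN, 5.83 ± 1.81 in cisplatin, 3.52 ± 0.88 in PCN and 4.02 ± 0.50 in control libraries (SD, n = 3 each), with overlap between cisplatin and control.

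Counted over the 5 tested transporters, 3 were lower and none higher in cisplatin against control, where 63.9% of all tested genes passed and 31.9% were lower. Between cisplatin+PCN and cisplatin 2 were higher and none lower, where 15.6% of genes passed and 7.97% were higher. Against PCN kidneys, cisplatin+PCN kidneys had all 5 past the threshold, 3 lower and 2 higher, where 46.9% of genes passed, 23.4% lower and 23.5% higher. Against control kidneys they had 4, 3 lower and 1 higher, where 46.6% passed, 23.6% lower and 23% higher. Between PCN and control 0 passed, where 0% of genes did in this limma fit. There 438 genes were at an unadjusted p under 0.05, none of them a tested transporter, and limma-voom on recovered reads also called 0 genes. In the interaction 0 passed, where 0.111% of genes, or 15, did. The comparisons share libraries, so these counts are not independent of each other.

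**Figure D3:**
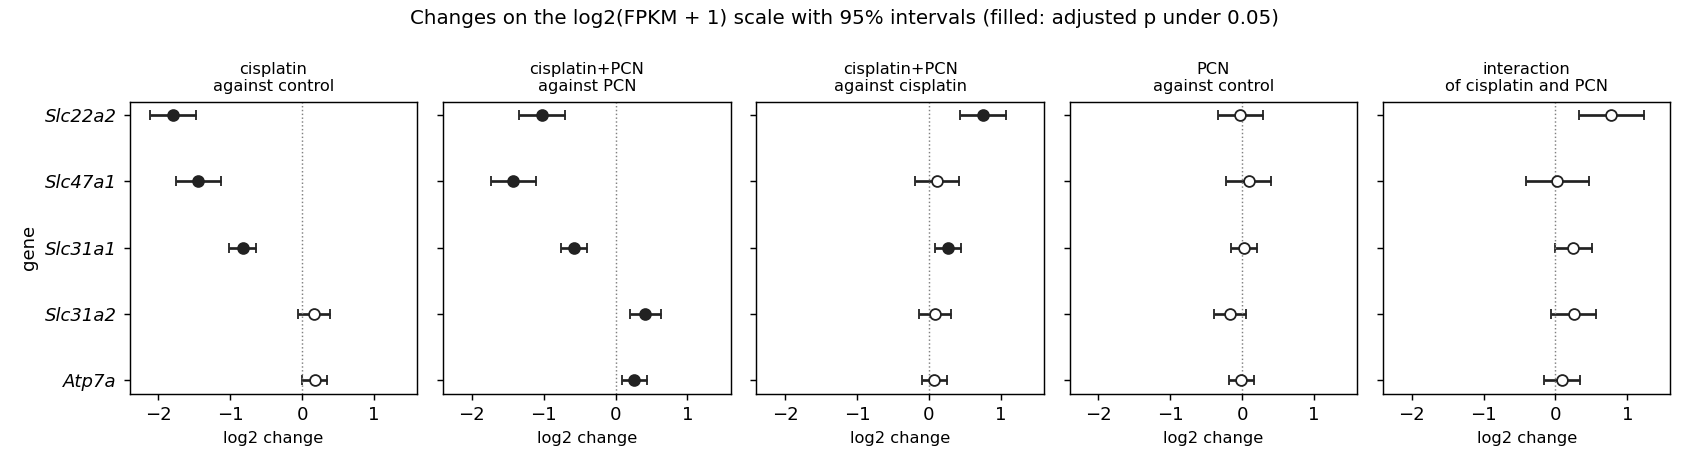
Changes of the 5 tested transporters on the log2(FPKM + 1) scale, in a panel per comparison, with bars for 95% intervals. Filled points passed at an adjusted p under 0.05. Slc22a2 was at 0.75 and Slc47a1 at 0.12 in cisplatin+PCN against cisplatin, and all 5 intervals in PCN against control include 0.

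The proximal tubule markers moved with Slc22a2 and Slc31a1. All 15 were lower in cisplatin than in control kidneys, with a median change of -2.67 against -0.83 for the 5 transporters and 0.01 for all genes. Over all tested genes, 31.9% were lower there. Of the same 15, 10 were higher and none lower in cisplatin+PCN against cisplatin, with a median of 0.996 against 0.12 for the transporters and 0 for all genes. The share of all tested genes that were higher there was 7.97%. Set against the summed FPKM of these markers, Slc22a2 stood at 4.73% ± 0.56 in cisplatin+PCN, 4.13% ± 0.08 in cisplatin, 3.176% ± 0.12 in PCN and 3.31% ± 0.26 in control libraries (SD, n = 3 each). The cisplatin+PCN libraries (4.09% to 5.06%) overlapped the cisplatin libraries (4.04% to 4.21%), and replicate 1 was the lowest of its group. Slc47a1 stood at 4.47% ± 1.11 in cisplatin+PCN, 6.06% ± 1.02 in cisplatin, 3.89% ± 0.18 in PCN and 3.73% ± 0.29 in control libraries. Slc31a1 stood at 2.57% ± 0.60 in cisplatin+PCN, 3.11% ± 0.24 in cisplatin, 1.26% ± 0.09 in PCN and 1.26% ± 0.09 in control libraries. On this scale the mean of Slc31a1 was lower in cisplatin+PCN than in cisplatin libraries, with overlap, where its FPKM was higher. All 3 transporters were higher on it in cisplatin than in control libraries without overlap, since the marker sum fell further than they did. The markers fell unequally, so this scale depends on which of them carry the sum. Slc34a1 averaged 37.8 FPKM in cisplatin and 1128 in control kidneys, whereas Slc27a2 averaged 452 and 856 and Hnf4a 104 and 212. The part of the proximal tubule markers in the transporter changes was not tested.

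Markers of other nephron segments also moved. Of 8 thick ascending limb markers, 7 were lower in cisplatin than in control kidneys and 5 were higher in cisplatin+PCN than in cisplatin kidneys. Of 7 markers of the distal convoluted and connecting tubule, 6 were lower in the first of these comparisons and 4 higher in the second. Of 8 tested collecting duct markers, 4 were lower and 1 higher in cisplatin than in control kidneys, and 5 were higher and 1 lower in cisplatin+PCN than in cisplatin kidneys. Over all tested genes, 63.9% passed in cisplatin against control and 15.6% in cisplatin+PCN against cisplatin.

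Markers of cells outside the tubule were also measured. The 7 fibroblast and matrix markers summed to 44.0 to 68.8 FPKM in cisplatin+PCN, 74.6 to 85.2 in cisplatin, 48.1 to 48.7 in PCN and 33.8 to 59.6 in control libraries. The 10 leukocyte markers, 4 of them under the minimum, summed to 30.6 to 70.3 FPKM in cisplatin+PCN, 63.1 to 79.8 in cisplatin, 37.1 to 41.9 in PCN and 36.1 to 62.9 in control libraries. They did not move together. Of the 6 tested, 3 were higher and 1 lower in cisplatin than in control kidneys, where 63.9% of all tested genes passed. Cd68 averaged 16.6 FPKM in cisplatin and 1.99 in control kidneys, whereas Csf1r averaged 3.85 and 9.29. The 5 erythroid markers summed to 0.198 to 0.638 FPKM in cisplatin+PCN, 0.472 to 6.94 in cisplatin, 337 to 543 in PCN and 318 to 1187 in control libraries. The part of these segments and cells in the transporter changes was not tested.

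Among the relatives of the organic cation transporters, 4 of 7 were tested. In cisplatin against control 3 were lower and 1 higher, where 63.9% of all tested genes passed. Among the lower ones were the ergothioneine carrier Slc22a4 at -0.99 (limma, adjusted p = 3.27e-05) and the carnitine carrier Slc22a5 at -0.70 (limma, adjusted p = 0.00221). Slc22a21, a rodent carnitine carrier, was higher by 0.93 (limma, adjusted p = 8.19e-06), with 2.47 ± 0.26 FPKM in cisplatin and 0.814 ± 0.113 in control kidneys (SD, n = 3 each). The list median was -0.81 in cisplatin against control and 0.05 in cisplatin+PCN against cisplatin. Slc47a2, Slc29a4 and Slc22a16 were under the minimum.

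Of 20 genes of copper handling besides the transporters, 18 were tested, and in cisplatin against control 7 were higher and 9 lower, with a median of -0.22. Over all tested genes 63.9% passed there. The 3 largest increases were in Mt1, Cp and Mt2. The metallothionein Mt1 averaged 861 ± 243 FPKM in cisplatin+PCN, 1559 ± 225 in cisplatin, 79.8 ± 3.27 in PCN and 77.5 ± 11.1 in control kidneys (SD, n = 3 each). It was higher by 4.31 in cisplatin than in control kidneys (limma, adjusted p = 4.35e-08) and lower by 0.89 in cisplatin+PCN than in cisplatin kidneys (limma, adjusted p = 0.0169). Ceruloplasmin, Cp, the copper carrier of plasma, was higher by 3.181 in cisplatin than in control kidneys (limma, adjusted p = 3.09e-07). Atox1, the chaperone that hands copper to ATP7A and ATP7B, averaged 345 ± 21.1 FPKM in cisplatin+PCN, 416 ± 12.7 in cisplatin, 191 ± 3.86 in PCN and 207 ± 12 in control kidneys. It was higher by 1.003 in cisplatin than in control kidneys (limma, adjusted p = 7.00e-07), whereas Ccs, the chaperone of superoxide dismutase, was lower by 0.59 (limma, adjusted p = 0.00322).

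Between cisplatin+PCN and cisplatin 2 copper genes were higher and 6 lower of the 18, where 15.6% of all tested genes passed. With a library left out these counts ranged from 0 to 2 and from 0 to 6, and without cisplatin replicate 3 no copper gene passed in this limma comparison. Ccs and the divalent metal importer Slc11a2 were higher, by 0.47 and 0.46 (limma, adjusted p = 0.0423 and 0.0259). Mt1, Mt2, Cp, Steap4, Atox1 and Xiap were lower, from -0.89 for Mt1 to -0.26 for Xiap. Mtf1, the metal-sensing factor that binds metal response elements, changed by -0.08 in cisplatin against control and did not pass (limma, adjusted p = 0.381).

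All 11 genes of platinum conjugate and drug efflux were tested, and in cisplatin against control 10 were higher and 1 lower, with a median of 0.53. In that comparison 63.9% of all tested genes passed, with a median of 0.01. The P-glycoprotein gene Abcb1b averaged 11.5 ± 1.06 FPKM in cisplatin+PCN, 12.9 ± 0.168 in cisplatin, 1.06 ± 0.258 in PCN and 1.21 ± 0.418 in control kidneys (SD, n = 3 each), a rise of 2.67 in cisplatin against control (limma, adjusted p = 8.67e-08). The basolateral exporter Abcc3 rose by 2.01 (limma, adjusted p = 5.54e-06), and the apical exporter Abcc2, which carries glutathione conjugates, rose by 0.53 (limma, adjusted p = 0.00791). Abcc6 fell by 1.19 (limma, adjusted p = 3.13e-05). Abcb1b, Abcc3 and Abcc2 thus passed in the direction opposite to Slc47a1, and Abcc6 in the same direction. Both efflux genes that passed between cisplatin+PCN and cisplatin were lower: Abcc3 at -0.66 (limma, adjusted p = 0.0404) and the channel subunit Lrrc8d at -0.25 (limma, adjusted p = 0.0388). With a library left out 0 to 2 efflux genes were lower and 0 to 1 higher in this comparison, and both calls were lost without 10 of the 12 libraries in turn.

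Glutathione conjugates of cisplatin are thought to be processed at the tubule surface by gamma-glutamyl transferase and dipeptidases. Of the 12 genes of this path, all tested, 7 were higher and 4 lower in cisplatin against control, with a median of 0.58. The share of all tested genes that passed there was 63.9%. Gclc, which makes the first step of glutathione synthesis, rose by 1.88 (limma, adjusted p = 3.06e-05). The surface enzymes Ggt1, Dpep1 and Anpep fell by 1.70, 1.89 and 1.07 (limma, adjusted p = 0.000133, 1.72e-06 and 1.11e-05). Anpep was the gene that passed in cisplatin+PCN against cisplatin, with 28.8 ± 2.53 FPKM in cisplatin+PCN and 15.6 ± 1.65 in cisplatin kidneys (SD, n = 3 each), a difference of 0.84 (limma, adjusted p = 0.00391).

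**Figure D4:**
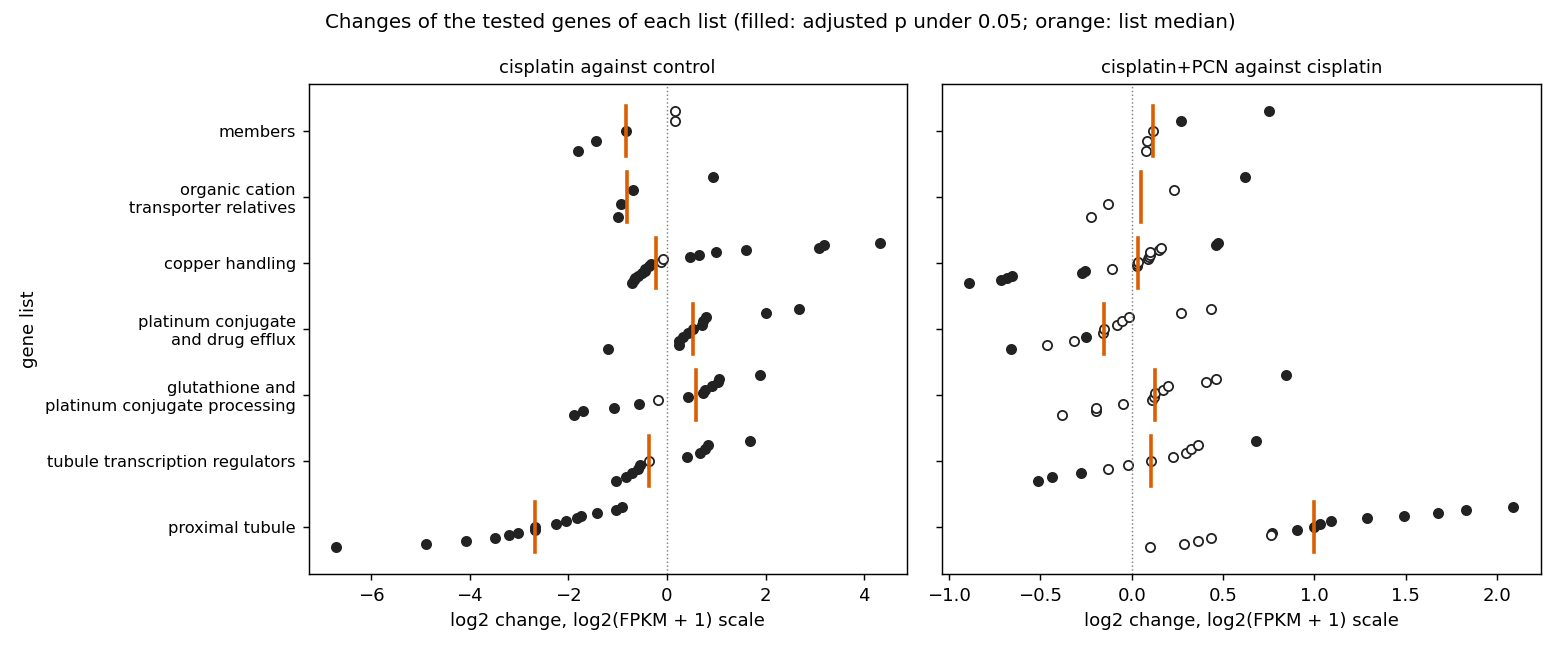
Changes of the tested genes of each list, with the transporters described here in the top row (members), for cisplatin against control on the left and cisplatin+PCN against cisplatin on the right. Filled points passed at an adjusted p under 0.05, and orange bars are list medians. Efflux genes lie mostly to the right in cisplatin against control (10 of 11 higher) and proximal tubule markers to the left (15 of 15 lower). Of all tested genes 63.9% passed in that comparison.

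Of 11 regulators of tubule or drug-handling genes, 5 were higher and 5 lower in cisplatin against control, with a median of -0.37. Among all tested genes 63.9% passed there. The tubule factor Hnf4a fell by 1.03 (limma, adjusted p = 0.00321). Nr1i2, the receptor for PCN, had 4.68 ± 0.218 FPKM in cisplatin+PCN, 5.27 ± 1.09 in cisplatin, 2.29 ± 0.241 in PCN and 2.50 ± 0.378 in control kidneys (SD, n = 3 each), and rose by 0.84 in cisplatin against control (limma, adjusted p = 0.000122). Nfe2l2, Pax8 and Sp1 were lower in cisplatin+PCN than in cisplatin kidneys, from -0.51 to -0.28, and with a library left out 0 to 3 regulators were lower. In PCN against control and in the interaction no gene of the 5 pathway lists passed in this limma fit.

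The genes nearest to each transporter in pattern were those with the smallest root mean square difference in log2 values over the 12 libraries. Each gene was first centred on its control mean. The difference was taken library by library, so it includes the spread among libraries of a group. For Slc22a2 the nearest genes were Aldh4a1 (0.0740), Haao (0.0788) and Aadac (0.111). Aldh4a1 averaged 29.1 FPKM in cisplatin+PCN, 16.3 in cisplatin, 61.6 in PCN and 61.3 in control kidneys. For Slc47a1 they were Vps8 (0.118), Ces1f (0.121) and Far1 (0.137), and for Slc31a1 Rab3ip (0.0501), Lactb (0.0511) and Kif21a (0.0545). Those of Slc31a2 were Galnt4, Ccdc25 and Elovl7 (0.0669 to 0.0949), and those of Atp7a were Cds1, Hoxa5 and Ctse (0.0707 to 0.0723). On the same measure, Slc22a2, Slc47a1 and Slc31a1 themselves changed by 1.05, 0.995 and 0.507, and Slc31a2 and Atp7a by 0.199 and 0.167. A small difference therefore says less for Slc31a2 and Atp7a, which changed little. No transporter was among the 3 nearest of another.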

How the data were processed

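Whole-kidney RNA was sequenced in 12 libraries. The authors deposited FPKM per gene for all libraries in a table that also lists a gene length in bases, used here to recover reads. HISAT2 2.0.5 and featureCounts 1.5.0-p3 are named per the submitters' processing notes, as are DESeq2 1.16.1 and edgeR 3.18.1 with no role given. The notes name build mm8, but 95.2% of the 52489 identifiers found in GENCODE M21 have the same coordinates there, so positions are read as GRCm38 (for Slc22a2 and Slc22a3 they differ from that release). FPKM times length gave whole reads in steps for 100% of values within 0.01. An FPKM of 1 was 18.7 to 27.2 reads per kilobase. No 2 replicates agreed within counting noise (chi-square per gene 4.97 to 78.7).

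Tests used limma (version 3.58.1, under R 4.3.3). Its trended variance was fitted to log2(FPKM + 1), which understates changes of low genes. The fit covered 13540 genes and all 12 libraries as 4 group means. P-values were two-sided, adjusted by Benjamini-Hochberg within each of 6 comparisons, with a threshold of 0.05. The test was checked on simulated data. The members, the 5 pathway lists and the 11 marker lists were chosen with earlier results of these data known. Genes named were all members and, per list and comparison, up to 4 with the largest change among those that passed without overlap of groups, or with a described role, and some genes that this rule names are not reported here. Alternatives were pseudocounts, filters, rescaling, quantile normalization, array weights, fits of the compared groups alone, a replicate block, limma-voom on recovered reads and each library left out. Promoters came from RefSeq (6 of 7 members matched).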

Additional observations from a re-analysis of the deposited data

How the results depend on the processing

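All 14 changes of transporters past the threshold kept their direction in the 320 alternatives run on them, and 10 of the 14 lost no call. The exceptions were Slc22a2 and Slc31a1 in cisplatin+PCN against cisplatin and Atp7a in cisplatin+PCN against PCN and against control, with 23 lost calls between them, and the cause was not tested. The number of transporters called in cisplatin+PCN against cisplatin was 2, against 1 with no expression minimum, 0 when only the groups compared were fitted, 3 with array weights (Slc31a2 also), and 1 to 2 with a library left out. In the interaction it was 0, against 2 with array weights (Slc22a2 and Slc31a2), 1 with limma-voom on recovered reads (Slc22a2) and 0 to 1 with a library left out. The interaction of Slc22a2 had adjusted p = 0.00310 with array weights and 0.0493 with limma-voom, and 0.0123 without cisplatin+PCN replicate 2. Array weights called 4315 genes in the interaction, against 15. Across all genes, cisplatin+PCN against cisplatin gave 2110 calls, against 1008 of 31636 with no minimum, 1 with those groups alone, 6862 with array weights and 530 to 3365 with a library left out, lowest without cisplatin replicate 3 and highest without cisplatin replicate 2. The count was 601 without cisplatin+PCN replicate 3, 774 without cisplatin replicate 1 and 1190 without cisplatin+PCN replicate 1.

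Atp7a lost its call in cisplatin+PCN against PCN when only the groups compared were fitted (adjusted p = 0.0603) and without 3 libraries in turn (up to 0.0844). Against control it lost it with no minimum (0.0535) and without 5 libraries in turn (up to 0.0764). Atp7a passed in cisplatin against control with limma-voom (0.0201) and without PCN replicate 2 (0.0476). Slc31a2 passed in cisplatin+PCN against control when those groups were fitted alone (0.0421), with array weights (0.00113), with limma-voom (0.0450) and without cisplatin replicate 2 (0.00998). It also passed in cisplatin+PCN against cisplatin with array weights (0.0274), and in the interaction with array weights (0.0108) and without cisplatin replicate 2 (0.0410). With limma-voom the changes were 0.32 for Atp7a in cisplatin against control and 0.35 for Slc31a2 in cisplatin+PCN against control. The medians of all tested genes there were 0.099 and 0.086, against 0.009 and 0.001 in the fit reported above. Those 2 limma-voom changes thus hold part of a general upward shift.

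Changes that turned sign were all short of the threshold. With a library left out, PCN against control ranged from -0.073 to 0.0098 for Slc22a2, from -0.019 to 0.061 for Slc31a1 and from -0.066 to 0.069 for Atp7a. Slc47a1 ranged from -0.058 to 0.26 in cisplatin+PCN against cisplatin and from -0.15 to 0.17 in the interaction. With array weights Atp7a was at -0.038 in cisplatin+PCN against cisplatin and -0.013 in the interaction. The Atp7a to Atp7b ratio fell to 3.43 in cisplatin libraries with 0.5 added to each value. The pathway list counts moved past 1.5 times in 150 of 1370 cases.

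Deviations of libraries with the same replicate number had 18 correlations from -0.28 to 0.37 (median -0.03). Those of libraries with different numbers had 36 from -0.40 to 0.33 (median 0.03). With 3 libraries a group, these correlations cannot decide whether replicate numbers pair libraries. With a replicate block the numbers of transporters called stayed at 3, 0, 2, 5, 4 and 0 over the 6 comparisons, and Slc22a2 in cisplatin+PCN against cisplatin had adjusted p = 0.0174 (limma). The interaction could not be fitted on the compared groups alone, and Atp7a has no value at a mean FPKM of at least 5. At 14 to 146 reads, Slc22a3 and Atp7b limit what can be said of them.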
